A study of Mus musculus with 4 samples.

Results

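Interferon-stimulated genes were examined in activated lung group 2 innate lymphoid cells (ILC2s), tissue lymphocytes that carry no antigen receptor and drive type 2 inflammation. The 49 genes were chosen by name, as known targets of interferons together with the 4 genes of the interferon receptors, and all 49 were found among the 22558 genes of the count table. RNA libraries numbered 4, of which 2 came from WT mice (C57BL/6) and 2 from mice labelled ICAM-1 KO on the same background (the KO-labelled libraries), and the study's methods name the line B6.129S4-Icam1 tm1Jcgr/J. Every mouse, at 6 weeks of age, had received 3 intranasal doses of 0.5 µg rmIL-33, each library pooled 4 mice, and ILC2s were sorted from lungs taken on day 4, so no unstimulated or interferon-treated group was at hand here. The knockout was not confined to ILC2s, since the whole animal carries it.

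Interferons are secreted when cells sense microbial nucleic acids or when lymphocytes are activated. Type I interferons bind the receptor of IFNAR1 and IFNAR2, and interferon gamma binds that of IFNGR1 and IFNGR2. JAK kinases then activate STAT proteins, which enter the nucleus and bind the ISRE and GAS motifs in the promoters of their targets. The products of these targets block viral entry, translation and budding, attack vacuoles that hold bacteria or parasites, or feed back on the pathway itself. In the lung, interferons are also known to restrain ILC2s.

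The promoters of a few members show what the members share and where they differ. RefSeq windows on GRCm38.p6, from 250 bases before to 50 after a start site, matched 35 of the 49 members by symbol. No window was matched for Dhx58, Zbp1, Usp18, Parp9, Parp14, Oas2, Mx1, Mx2, Gbp4, Iigp1, Ly6a, Ly6e, Ifi27l2a and Rtp4. The core of the ISRE was searched as GAAANNGAAA and the GAS motif as TTCNNNGAA, on both strands, and matches of the 2 motifs may overlap. At least 1 window of 19 of the 35 members (54.3%) held the ISRE core, against 3.99% of all 27025 genes with a window, and the GAS motif was found for 13 members (37.1%), against 9.55%. These are matches of letters, and binding was not measured. The next lines give the 150 bases before a start site of 5 members with an ISRE core, 5′ to 3′ on the strand of the gene. ISRE core matches on either strand are in capitals. GAS matches are not marked, and in Bst2 the bases that a GAS match shares with an ISRE core match are in capitals. Isg15 is shown as a classical antiviral gene. Bst2 and Irgm1 are shown as members that were lower in the KO-labelled libraries, and Gbp3 and Gbp7 as members that were higher.
Isg15: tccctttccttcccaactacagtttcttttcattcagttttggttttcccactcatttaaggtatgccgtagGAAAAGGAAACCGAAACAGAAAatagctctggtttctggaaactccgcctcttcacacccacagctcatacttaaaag
Bst2: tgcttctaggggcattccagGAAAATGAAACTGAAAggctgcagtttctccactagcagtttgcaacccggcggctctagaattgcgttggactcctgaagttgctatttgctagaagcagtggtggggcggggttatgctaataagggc
Irgm1: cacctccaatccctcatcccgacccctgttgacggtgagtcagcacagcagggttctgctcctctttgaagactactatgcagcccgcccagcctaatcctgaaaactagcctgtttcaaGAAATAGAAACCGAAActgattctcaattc
Gbp3: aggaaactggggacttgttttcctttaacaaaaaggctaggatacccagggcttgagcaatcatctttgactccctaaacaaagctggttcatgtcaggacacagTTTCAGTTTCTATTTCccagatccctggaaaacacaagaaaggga
Gbp7: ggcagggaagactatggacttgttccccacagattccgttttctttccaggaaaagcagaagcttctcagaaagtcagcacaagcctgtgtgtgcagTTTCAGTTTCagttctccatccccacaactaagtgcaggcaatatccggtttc

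These stretches lie at chr4:156200819-156200968 (minus strand) for Isg15, chr8:71537473-71537622 (minus) for Bst2, chr11:48871421-48871570 (minus) for Irgm1, chr3:142559894-142560043 (plus) for Gbp3 and chr3:142530186-142530335 (plus) for Gbp7. The start of the first ISRE core match lay 78 bases before the start site in Isg15, 130 in Bst2, 30 in Irgm1, 45 in Gbp3 and 53 in Gbp7. Isg15 held 3 overlapping ISRE core matches, Bst2, Irgm1 and Gbp3 held 2 and Gbp7 held 1. For Gbp3 this is the window shown, and its window for another start site, at chr3:142560106-142560405, held no match. These members were chosen for having the motif, and they include members that moved in opposite directions. Of the members that changed, 3 had a window but no ISRE core match in any.

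The target of the knockout was checked first. Icam1, at chr9:21015985-21028817 of mm10, had normalized counts of 85.2 and 83.3 in the WT libraries and of 97.6 and 110 in the KO-labelled libraries, where normalized counts are the authors' own values, scaled by the upper quartile method. The change did not pass the test (log2 fold change 0.33, standard error (SE) 0.108, adjusted p = 0.0745 by the quasi-likelihood test of edgeR, adjusted over all genes tested after Benjamini and Hochberg). Icam1 RNA was not lower where the label says knockout, so the libraries are named here by their label and each direction rests on it. By flow cytometry, the paper reports that lung ILC2s of ICAM-1 KO mice given rmIL-33 lack the ICAM-1 protein. The counts are summed over the gene and show neither which exons were read nor the protein, so they do not tell whether the mutant allele still gave transcripts, and Gm47079 overlaps it on the other strand. Total counts ranged from 24796148 to 28782471 per library, and the 49 members took 0.554% to 0.61% of them. ILC2 markers were abundant in all 4 libraries, with 17 genes summing to 8725 and 9396 CPM (counts scaled to the library total) in WT and to 7718 and 7629 in the KO-labelled libraries. B cell markers had the largest sums of the other marker lists. Their 11 genes summed to 1718 and 4162 CPM in WT and to 7470 and 11136 in the KO-labelled libraries. The libraries are pools, and 2 per label show the spread between pools but not between mice.

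The interferon-stimulated genes did not move together. Of the 49 members, 43 reached the level needed for testing, and 5 of these rose and 4 fell in the KO-labelled libraries at an adjusted p under 0.05. Ifi27l2a, Gbp7, Ifnar1, Gbp3 and Trim25 rose by 1.45-fold to 2.35-fold. Bst2, Irgm1, Lgals3bp and Ly6a fell, and were 1.51-fold to 2.13-fold higher in WT. The classical antiviral genes Isg15, Ifit1, Ifit2, Rsad2, Oas1a, Oas3 and Usp18 did not pass the test.

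The 5 members that rose made up 11.6% of those tested, against 8.8% of all 11711 genes tested, and the 4 that fell made up 9.3%, against 4.97%. With a change of at least 2-fold as a further condition, Ifi27l2a alone rose and Bst2 alone fell, against 4.94% and 0.538% of all genes. The median log2 fold change was -0.08 over the 43 members and 0.01 over all genes, with 19 members above 0 and 24 below. Both KO-labelled libraries lay above both WT libraries for 11 members (25.6%, against 28.3% of all genes) and below both for 19 (44.2%, against 31.3%). Before adjustment, p was under 0.05 for 16 of the 43 members and for 3542 of the 11711 genes. In bulk libraries fewer cells of a type and less RNA per cell cannot be told apart, and the summed markers of endothelium, macrophages, neutrophils, T cells and B cells were also higher in both KO-labelled libraries than in either WT library.

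**Figure D1:**
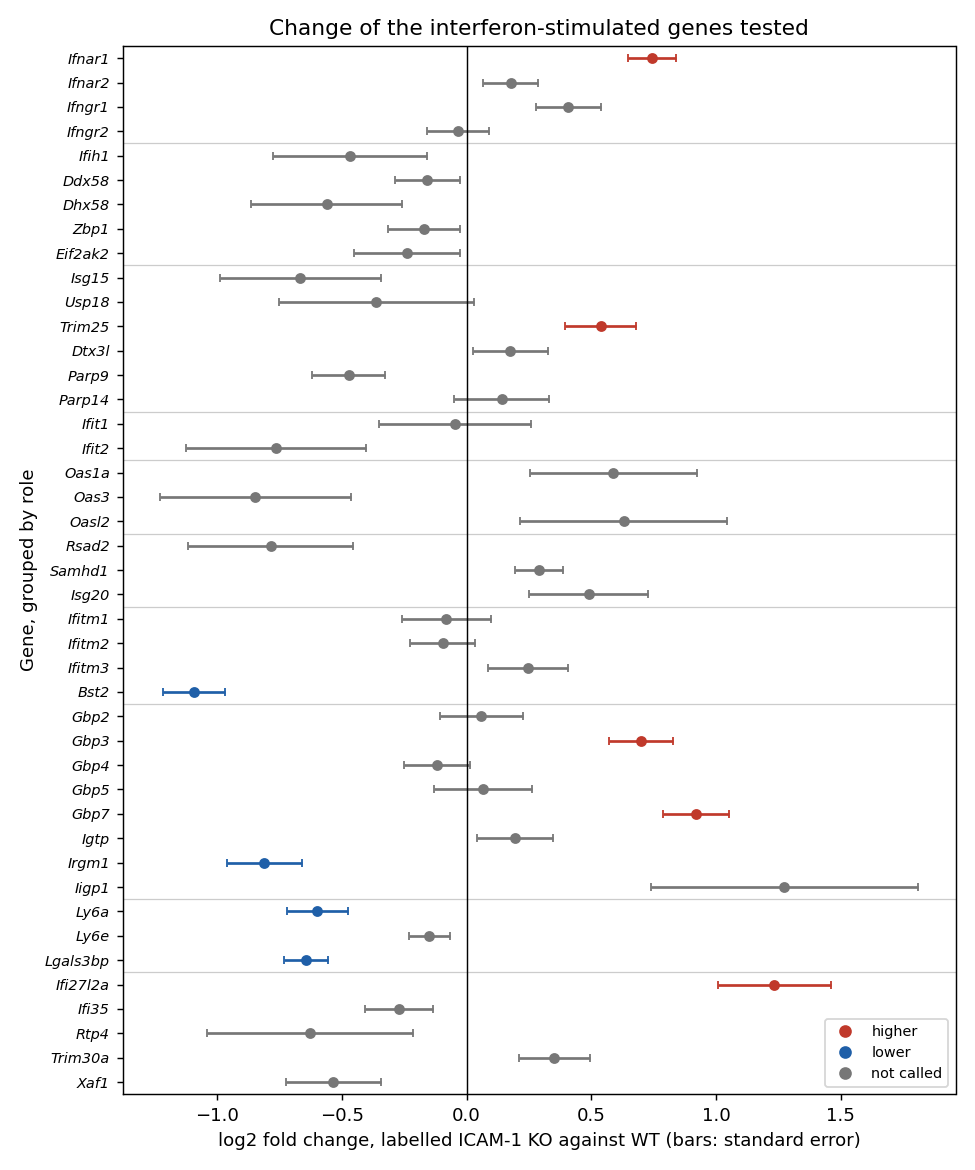
log2 fold change of the 43 tested members between the KO-labelled libraries and WT (2 libraries each), with bars for the SE and rows grouped by role. The 5 members that rose (red) and the 4 that fell (blue) fall in 6 of the 10 roles, and the widest bar is that of Iigp1, at 1.27 with a SE of 0.534.

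Among the receptor genes, Ifnar1, which encodes a chain of the type I interferon receptor, stood at 144 and 145 normalized counts in the WT libraries and at 224 and 251 in the KO-labelled ones. The WT libraries were almost equal and both lay below the others (log2 fold change 0.74, SE 0.0964, adjusted p = 0.00247 by the quasi-likelihood test of edgeR). Ifnar1 lies at chr16:91485238-91507441 of mm10. Its neighbour Ifnar2, the other chain, had 58.3 and 60.3 against 66.9 and 64.6 and did not pass (adjusted p = 0.318 by edgeR). Gm21970 shares 315 exon bases with Ifnar2 on the same strand. Ifngr1, which binds interferon gamma, was the most abundant receptor gene per length. It had 325 and 435 against 475 and 516. Its adjusted p of 0.0704 by edgeR missed the threshold, and was 0.0255 without WT replicate 2, 0.0233 without ICAM-1 KO replicate 1 and 0.011 with DESeq2, but 0.287 without WT replicate 1, 0.117 without ICAM-1 KO replicate 2 and 0.208 with no filter on rare genes. Ifngr2 overlapped between the groups, at 56.2 and 53.2 against 49.8 and 55.

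The 5 sensors of foreign nucleic acid all had lower values in both KO-labelled libraries than in either WT library, as had 31.3% of all genes tested, and none passed the test. Ddx58, which encodes RIG-I, had 48.4 and 45.9 normalized counts in WT and 40 and 42.9 in the KO-labelled libraries. Zbp1, a sensor of Z-form nucleic acid, had 33.8 and 33.3 against 29.4 and 29.2. Eif2ak2, the kinase PKR, which halts translation, had 16.9 and 20.8 against 14.5 and 16.9. The log2 fold changes of the sensors ranged from -0.56 for Dhx58 to -0.16 for Ddx58, with adjusted p from 0.249 to 0.491 by edgeR. For Eif2ak2 the highest KO-labelled library and the lowest WT library were nearly equal.

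The ISG15 group holds a ubiquitin-like modifier, the protease that removes it and several ligases. Trim25, a ubiquitin ligase that activates RIG-I, lies at chr11:88999376-89020293 of mm10 and had 27.4 and 30.2 normalized counts in WT against 40.8 and 41.3. The groups did not overlap (log2 fold change 0.54, SE 0.142, adjusted p = 0.0381 by edgeR). With any 1 library left out Trim25 no longer passed, with adjusted p from 0.078 without WT replicate 2 to 0.136 without WT replicate 1, 0.094 without ICAM-1 KO replicate 1 and 0.122 without ICAM-1 KO replicate 2. Isg15 itself had 7.59 and 12.4 against 6.21 and 6.24 (log2 fold change -0.67, adjusted p = 0.202 by edgeR), so that the WT libraries differed more from each other than the lower of them did from the others. Usp18, the ISG15 protease, overlapped, at 5.46 and 9.2 against 3.98 and 7.12. Parp9 and Dtx3l, which encode partners in 1 complex, are divergent neighbours that share 458 exon bases on opposite strands. Parp9 had 46.5 and 46.4 against 36.3 and 29.6 (adjusted p = 0.0616 by edgeR, 0.0488 without ICAM-1 KO replicate 1 and 0.159 to 0.299 without any other library) and Dtx3l had 31.9 and 38.4 against 40.9 and 37.1, and reads of the shared bases cannot be assigned without knowledge of the strand.

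The IFIT, OAS and Mx genes were rare, and none of them passed the test. Among the IFIT genes, whose proteins bind foreign RNA, Ifit1 was nearly level at 6.04 and 5.66 against 5.66 and 5.48, and Ifit2 had 6.5 and 5.1 against 3.85 and 2.9 (adjusted p = 0.191 by edgeR). Ifit3 was too rare for the test, at 1.22 and 3.03 against 1.14 and 0.912. The OAS genes, which encode sensors that activate RNase L or their relatives, pointed in different directions. Oas3 had 7.2 and 11.2 against 6.73 and 3.5, Oas1a had 8.41 and 10.3 against 9.35 and 18.1, and Oasl2 had 2.48 and 5.64 against 6.98 and 5.45. Oas2 and Oasl1 were not tested, and the only high value of Oasl1 was 3.4 in ICAM-1 KO replicate 1, against 0.701 to 0.792 in the other libraries.

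Rsad2, which encodes viperin, had 7.26 and 5.95 normalized counts in WT and 3.92 and 3.63 in the KO-labelled libraries. The groups did not overlap, but the adjusted p was 0.148 by edgeR (log2 fold change -0.78, SE 0.331). Samhd1, a phosphohydrolase that depletes nucleotides, was far more abundant, with 162 and 173 against 192 and 210 (adjusted p = 0.0748 by edgeR). Isg20, an exonuclease, had 14.7 and 12.4 against 15.5 and 21.6. Mx1, a GTPase against influenza viruses that is defective in most inbred mice, had 1.09 and 2.44 against 0.361 and 0.309 and was under the limit for testing. Mx2 was as rare, and its WT libraries were at 1.29 and 0.128. In a fit without a filter Mx1 was tested and did not pass (adjusted p = 0.141 by edgeR).

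Bst2, which encodes the membrane protein tetherin, had the largest decrease of the members tested. It lies at chr8:71534255-71537456 of mm10 and fell from 83.5 and 87.1 normalized counts in WT to 36.3 and 42.2. Neither group spanned more than a small part of the distance between them, and the log2 fold change was -1.09 (SE 0.125, adjusted p = 0.00146 by the quasi-likelihood test of edgeR). The other membrane restriction factors, the interferon-induced transmembrane proteins that hinder viral entry, overlapped between the groups. Ifitm2 had 67.4 and 81.1 against 63.9 and 72.4, Ifitm3 had 42.5 and 55.3 against 51.8 and 61.9, and Ifitm1 had 25.4 and 30.2 against 23.6 and 28. The counts of all 3 Ifitm genes were not whole numbers in any library, as was common among the members. Reads could thus have been split with other genes, which the counts do not name.

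The guanylate binding proteins and the immunity-related GTPases act on the vacuoles of intracellular pathogens, and 3 of these 8 genes (37.5%) changed, against 13.8% of all genes tested. Gbp7, at chr3:142530342-142550149 of mm10, rose from 56.4 and 60.7 normalized counts to 97.2 and 120 (log2 fold change 0.92, SE 0.131, adjusted p = 0.00352 by the quasi-likelihood test of edgeR). Gbp3, the next Gbp gene on that chromosome, chr3:142560026-142573209, rose from 39.6 and 47.6 to 71.3 and 67.7 (log2 fold change 0.70, SE 0.13, adjusted p = 0.0109 by edgeR). Without WT replicate 1 the adjusted p of Gbp3 was 0.056. The nearest tested Gbp genes on either side, Gbp5 and Gbp2, overlapped between the groups. Gbp5 had 18.3 and 22.8 against 22.8 and 19.5, and Gbp2 had 34.2 and 41.8 against 34.8 and 42.8. Gbp2b lies between Gbp3 and Gbp2 and was too rare for the test. Gbp7 shares 637 exon bases with Gm43802 on the same strand, and both Gbp3 and Gbp7 had counts with fractions in all 4 libraries. Reads could thus have been split with other genes, which the counts do not name. Fractions occurred in at least 1 library for 31 of the 49 members.

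Irgm1, a regulator of the other immunity-related GTPases and of autophagy, fell from 39 and 40.5 normalized counts to 23.4 and 21.2. The libraries of each label were close to each other, and the log2 fold change was -0.81 (SE 0.15, adjusted p = 0.0108 by edgeR). It lies at chr11:48861968-48871683 of mm10, and without WT replicate 2 its adjusted p was 0.0526. Ifi47, of the same family and region, fell from 83.5 and 88.9 to 57 and 51.8 (log2 fold change -0.64, adjusted p = 0.00868 by edgeR). Tgtp1 and Tgtp2, which lie between Irgm1 and Ifi47, did not pass. Their log2 fold changes were -0.66 and -0.51 (adjusted p = 0.134 and 0.0932 by edgeR). Igtp, farther along the chromosome, had 45.5 and 54.5 against 50.2 and 62, and shares 162 exon bases with Irgm2. Irgm2 was higher in both KO-labelled libraries and did not pass (log2 fold change 0.70, adjusted p = 0.0827 by edgeR). Iigp1 had the largest log2 fold change of the 43 members tested, 1.27, with 0.891 and 2.53 against 3.12 and 4.94, and at this low level it did not pass (SE 0.534, adjusted p = 0.146 by edgeR).

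**Figure D2:**
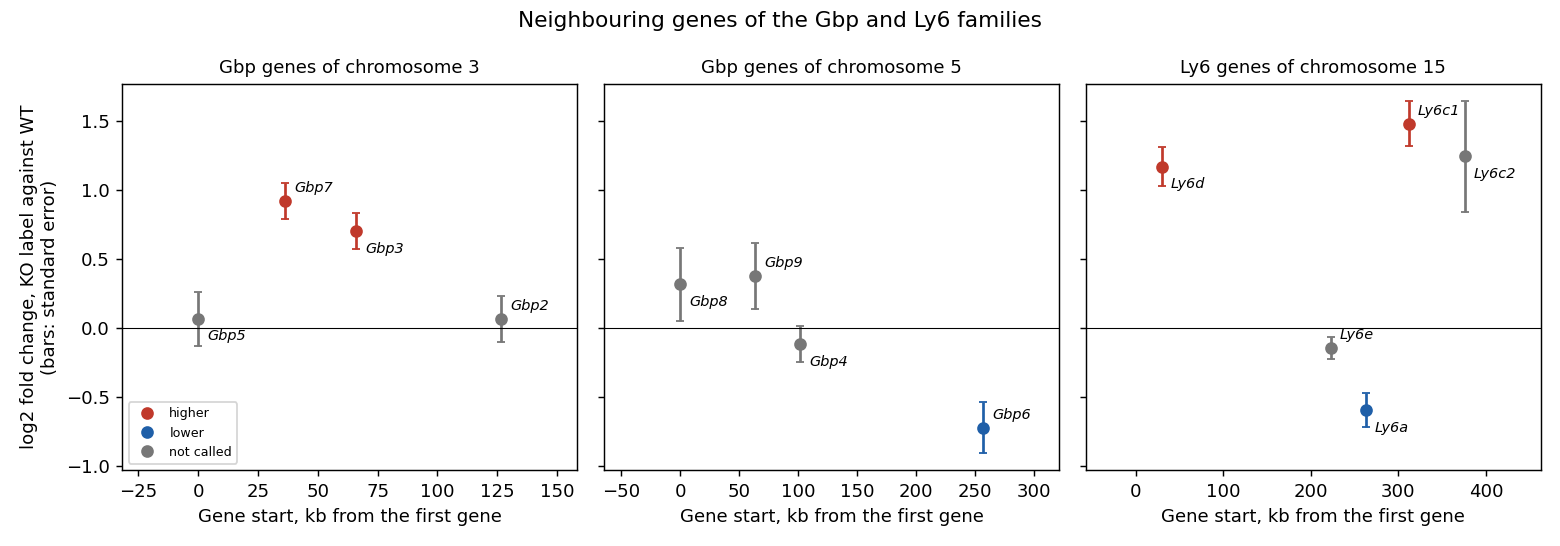
log2 fold change (KO-labelled against WT, bars for the SE) of tested genes of the Gbp family on chromosomes 3 and 5 and of the Ly6 family on chromosome 15, placed by the distance of the gene start from the first gene of the cluster in kb. Gbp7 and Gbp3 at 0.92 and 0.70 lie between Gbp5 at 0.07 and Gbp2 at 0.06, and Ly6a at -0.60 lies between Ly6e at -0.15 and Ly6c1 at 1.48, and differences between neighbours were not tested.

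Ly6a and Ly6e, small surface proteins anchored in the membrane by lipid, were the most abundant members per length. Ly6a, which encodes Sca-1 and lies at chr15:74994877-74998031 of mm10, fell from 820 and 975 normalized counts to 647 and 518 (log2 fold change -0.60, SE 0.121, adjusted p = 0.0147 by the quasi-likelihood test of edgeR). Without WT replicate 2 its adjusted p was 0.0968. Ly6e had 2236 and 2276 against 2044 and 1951, lower in both KO-labelled libraries, and did not pass (log2 fold change -0.15, SE 0.0817, adjusted p = 0.258 by edgeR). Ly6c1, a neighbour of Ly6a, rose from 15.3 and 18.8 to 46 and 47.2 (log2 fold change 1.48, adjusted p = 0.00131 by edgeR). Lgals3bp, a secreted glycoprotein that binds galectins, lies at chr11:118392751-118402092 of mm10 and fell from 337 and 372 to 220 and 225 (log2 fold change -0.64, SE 0.0889, adjusted p = 0.00323 by edgeR).

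Ifi27l2a, a small protein of mitochondrial and nuclear membranes, rose from 17.9 and 31.9 normalized counts to 55.8 and 59.3. It lies at chr12:103442167-103443680 of mm10, and its log2 fold change was 1.23 (SE 0.227, adjusted p = 0.0106 by the quasi-likelihood test of edgeR). The WT libraries were far apart, so that the log2 fold change lay between 0.88 and 1.72 when single libraries were left out, and it passed each time, but not with rare genes kept in the fit (adjusted p = 0.0708 by edgeR). Trim30a, a ligase that dampens innate signals, had 29.2 and 30.4 against 38 and 36.7 and did not pass (adjusted p = 0.13 by edgeR), nor did Xaf1, a protein that promotes cell death, with 21.7 and 20.8 against 14.9 and 14 (adjusted p = 0.0949 by edgeR). Ifi35 had 57.8 and 66.8 against 55.3 and 46.2, and Rtp4, a chaperone of receptors, had 6.14 and 10.4 against 3.37 and 7.04. Ifi44 was under the limit for testing, at 0.429 and 0.823 against 1.11 and 1.02.

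**Figure D3:**
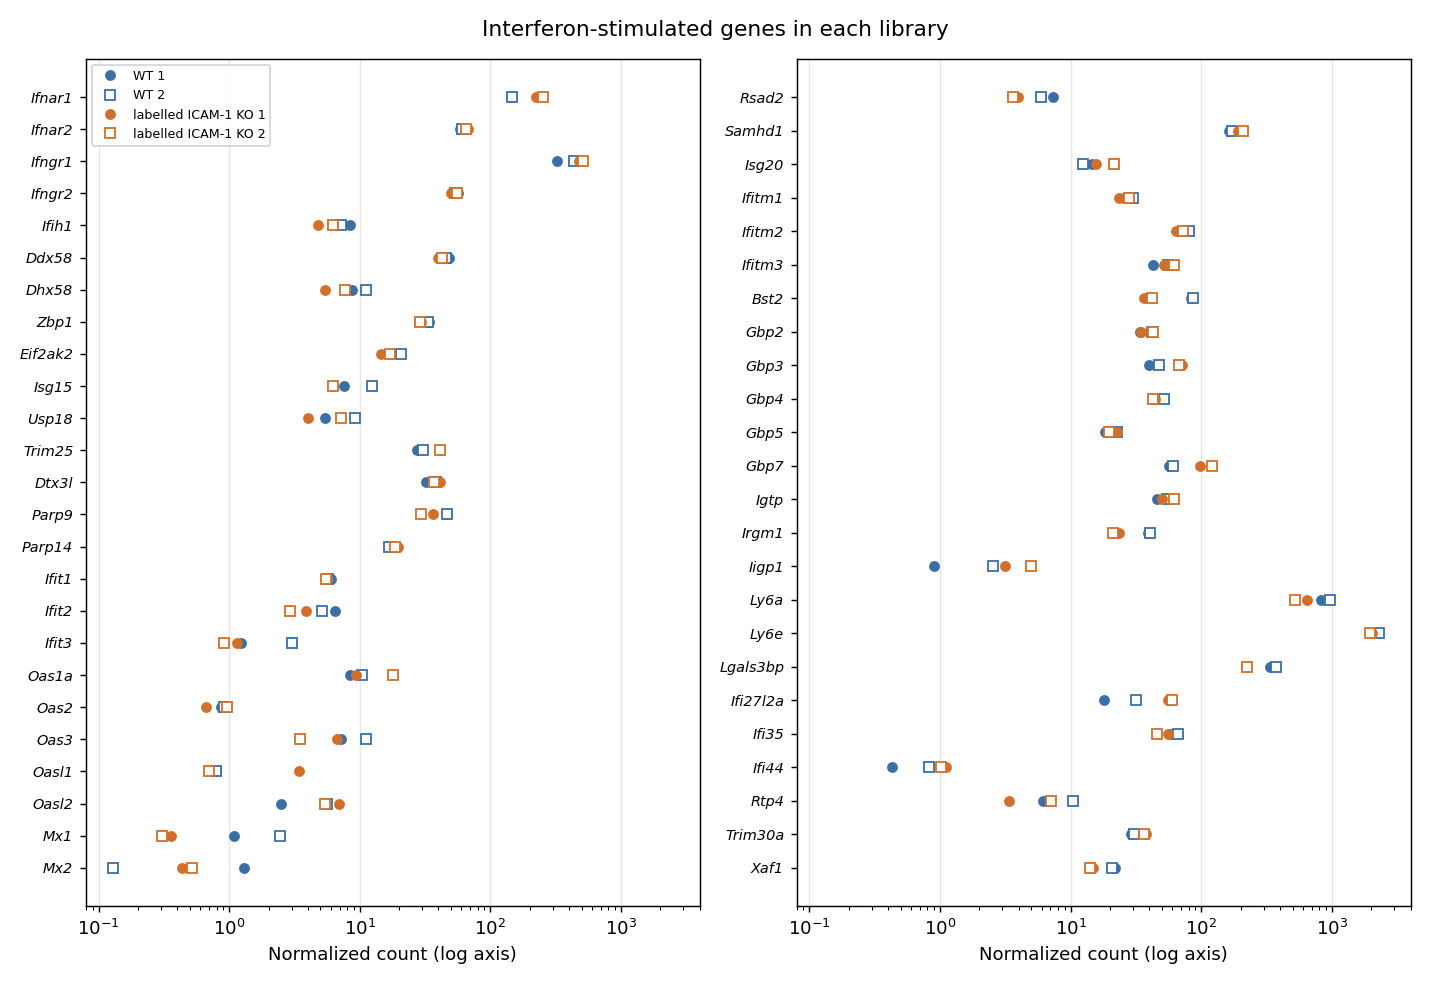
Normalized count of each of the 49 members in each library on a log axis, WT in blue and the KO-labelled libraries in orange, with filled circles for replicate 1 and open squares for replicate 2. Bst2, Irgm1 and Lgals3bp show pairs of WT libraries above KO-labelled pairs, and Ifnar1, Gbp3 and Gbp7 show the opposite. Mx2, under 1 normalized count on average, scatters widely.

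Levels of the members differed far more than any change between labels. Mean normalized counts over the 4 libraries ran from 0.593 for Mx2 to 2127 for Ly6e, with a median of 31, close to the 28.8 of all genes tested. Per kb of exon, Ly6a stood at 430 to 809 over the libraries and Ly6e at 516 to 601, so their order was not separated by the libraries. Ifngr1 followed at 114 to 181, Ifitm2 at 97.5 to 124 and Lgals3bp at 77.4 to 131, ranges that overlap between neighbours. Ifi27l2a was at 38.6 and 68.9 per kb in WT, below both WT values of Bst2, 92.5 and 96.5. In the KO-labelled libraries this order was turned, with 121 and 128 for Ifi27l2a and 40.2 and 46.7 for Bst2.

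The least abundant of the 9 members that changed was Irgm1, at a mean normalized count of 31. Of the 43 members tested, 25 were at or above this level, which was taken from the calls themselves, and 18 below it, and SEs of the log2 fold change ran from 0.0817 to 0.227 above it and from 0.177 to 0.534 below it. Most of the classical antiviral genes belong to the less abundant set, where a log2 fold change of -0.78, as in Rsad2, was not told from the spread between libraries. Members with the ISRE core were called in both directions. Of the 18 tested members with the motif 2 rose (Gbp3 and Gbp7), 2 fell (Bst2 and Irgm1) and 14 did not pass. The median log2 fold change of these 18 was -0.07. Of the 14 with a window but no such match 3 changed, and their median was 0.18. Of all genes tested 13.8% were called, 8.8% higher and 4.97% lower. So few calls do not tell whether the motif goes with a direction.

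**Figure D4:**
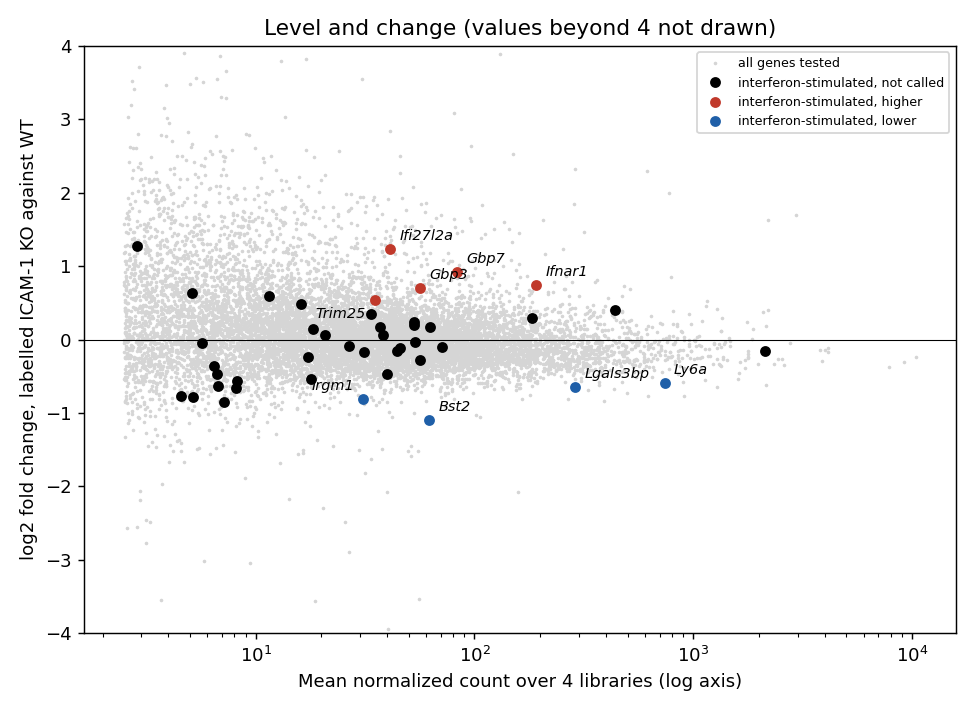
Mean normalized count over the 4 libraries (log axis) against the log2 fold change between the KO-labelled libraries and WT, with the genes tested in grey (those beyond 4 in either direction not drawn) and the 43 members in colour or black. The 9 members that changed are at mean normalized counts of 31 and above, and the members that did not pass (black) include several below 10 with log2 fold changes from -0.85 to 1.27.

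Replicates of 1 label also differed in these genes. In 32 of the 43 members (74.4%) WT replicate 2 was above WT replicate 1, against 51.2% of all genes tested, and the median log2 ratio was 0.21, against 0.01. The WT libraries were more than 1.5-fold apart for 7 members (16.3%, against 12% of all genes tested), Isg15, Usp18, Oas3, Oasl2, Iigp1, Ifi27l2a and Rtp4, each higher in replicate 2, and of these 7 Ifi27l2a alone passed the test between the labels. In the KO-labelled libraries, replicate 2 was higher for 24 members (55.8%, against 51.3% of all genes), and 5 members were more than 1.5-fold apart, 4 of them higher in replicate 2.

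Genes upstream in the pathway were called about as often as all genes. Of the interferon genes listed, Ifng alone was in the count table, with 2.48 and 2.84 normalized counts in WT against 1.59 and 3.27 (adjusted p = 0.93 by edgeR). Of 23 genes of signal transduction 2 rose, the kinase genes Jak2 and Ikbke, and 1 fell, Irf2, which encodes a factor that competes at interferon-responsive promoters. Jak2 rose from 295 and 315 to 381 and 366 (log2 fold change 0.32, adjusted p = 0.0365 by edgeR) and Irf2 fell from 42.7 and 48.8 to 28.2 and 33.3 (log2 fold change -0.54, adjusted p = 0.0471 by edgeR). The 3 genes made up 13% of the 23, against 13.8% of all genes tested, and the median log2 fold change of the 23 was 0.12.

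Other interferon-induced genes outside the 49 were also called at a share near that of all genes. Of these, 60 had counts and 50 were tested, and 3 rose and 3 fell, 6% in each direction, against 8.8% and 4.97% of all genes tested, with a median log2 fold change of 0.12. Ly6c1, Cd274 and Phf11b rose, and Ifi47, Nt5c3 and Gbp6 fell. Cd274, which encodes the checkpoint ligand PD-L1, rose from 29.9 and 34.9 to 52 and 43.2 normalized counts (log2 fold change 0.58, adjusted p = 0.0378 by edgeR). Gbp6, of the cluster on chromosome 5 that also holds Gbp4, fell from 28.7 and 26 to 15.3 and 17.2 (log2 fold change -0.72, adjusted p = 0.0329 by edgeR). Gbp4 had 44.6 and 51.5 against 44.2 and 42.9.

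Apart from fibroblasts, the markers of each other lung cell list rose at a larger share than all genes tested. Of all genes tested, 8.8% rose and 4.97% fell. All 21 endothelial markers tested rose, and the 22 listed summed to 429 and 422 CPM in WT against 1162 and 1182. Of the macrophage and monocyte markers 10 of 15 rose (summed 599 and 578 against 1044 and 1283), of the alveolar and airway epithelial markers 7 of 13 (561 and 315 against 848 and 1868), of the neutrophil markers 6 of 8 (93.1 and 97.1 against 248 and 192) and of the B cell markers 6 of 10 (1718 and 4162 against 7470 and 11136). T cell markers rose for 7 of 13 (839 and 942 against 1446 and 1675), dendritic cell markers for 3 of 6 (206 and 262 against 290 and 307) and NK cell and ILC1 markers for 2 of 6 (307 and 351 against 384 and 427). Of 6 eosinophil markers 3 rose and 2 fell (121 and 92.7 against 43.9 and 69.4). Among 7 fibroblast markers 1 fell (summed 197 and 249 against 186 and 201). That was a share of calls of 14.3%, near the 13.8% of all genes tested. No marker of these lists was at 0 in all 4 libraries, and Epx, of the eosinophil list, was at 0 in both KO-labelled libraries. Of the 16 ILC2 markers tested 6 fell, Il2ra, Arg1, Il5, Il13, Hlf and Calca, and Klrg1 rose. Members such as Ifnar1, Ifi27l2a, Ly6a, Bst2 and the Ifitm genes are known to be expressed in several of these cell types. The part of cell composition in their levels, and in the changes of those called, was not tested. The study's methods gate ILC2s as CD45+ ST2+ CD127+ cells negative for lineage markers of T cells, B cells, granulocytes and myeloid cells. The paper reports a high ILC2 purity for the pools sequenced here. How RNA of these other markers came to be in the libraries was not tested.

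**Figure D5:**
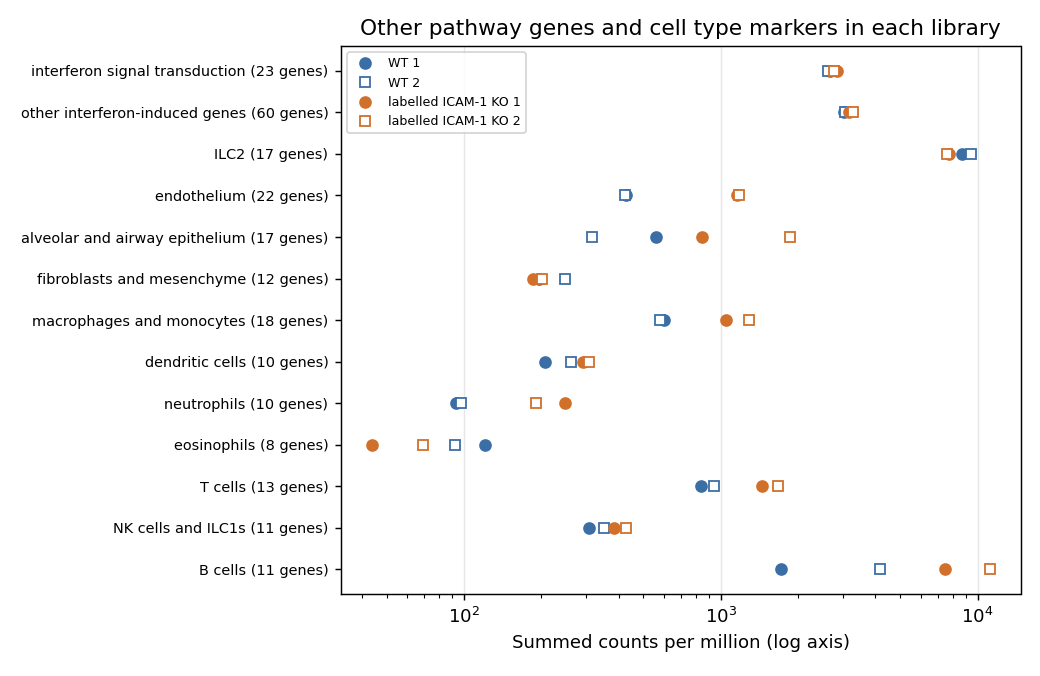
Summed CPM, on a log axis, of 2 lists of other interferon pathway genes and of 11 lists of cell type markers in each library, with symbols as for the levels of the members. The pathway lists lie close together in all libraries (2625 to 2840 for signal transduction), whereas endothelial markers are at 422 and 429 in WT and at 1162 and 1182 in the KO-labelled libraries.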

How the data were processed

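RNA of sorted lung ILC2s was compared between 2 WT and 2 ICAM-1 KO libraries, grouped by the sample titles. Per the paper's methods, the authors made cDNA from 10 ng of RNA with a SMARTer low-input kit, aligned reads by STAR against mm10 and the GENCODE M20 genes, and quantified them in Partek, by its E/M model as the deposited table is named. The authors deposited expected counts for 22558 genes, of which 61.1% are whole numbers within 0.01, so that some reads were shared out between genes, and for 18324 genes a normalized signal scaled by upper quartile, here called normalized count. Whether counting used strand is not given in the sources used here. Gene ends are the deposited value minus 1 base, and 48 of the 49 members then equal GENCODE M21, used for exon length and overlaps.

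Expected counts were rounded and fitted with edgeR 4.0.16 in R 4.3.3 (glmQLFit with legacy set to FALSE, glmQLFTest, upper quartile factors, no covariate) over 11711 genes. These are genes whose normalized counts over the 4 libraries average 1 or more and sum to 10 or more, the limits the methods state. The paper reports a larger number of transcripts in its analysis, and its set was not compared with this one. P-values were adjusted by Benjamini-Hochberg over all of them and called under 0.05. GSA of Partek was not run. The code was tested on simulated data. Counts carry no molecular identifiers, and nothing in the labels tells how independent the pools are, so errors cover the spread between these libraries alone.

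The members and lists were chosen with earlier results of these data known. Every member past the threshold was named, and the most abundant of the others by role; Mx2, Oas2, Oasl1, Ifi44, Ifit3 and Mx1 were named as not tested, and the further members after their values were seen. Alternatives were TMM factors, DESeq2 1.42.0, limma 3.58.1 on log2 of the normalized count plus 1, no filter, at least 10 counts in every library, the older quasi-likelihood method, the replicate number as a block, each library left out, and a 2-fold limit.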

Additional observations from a re-analysis of the deposited data

How the results depend on the processing

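With TMM factors, limma, the older quasi-likelihood method and at least 10 counts in every library, the same 5 members rose and the same 4 fell, and DESeq2 gave 7 and 5 that include them. When rare genes were kept (22158 tested), 2 rose and 3 fell, and Trim25 (adjusted p = 0.108), Ifi27l2a (0.0708), Gbp3 (0.0608) and Ly6a (0.0589) were lost in edgeR's test. With a limit of 2-fold, 1 rose and 1 fell. With each library left out in turn, 3 to 5 rose and 2 to 5 fell, the lowest counts coming without WT replicate 1 (3 rose) and without WT replicate 2 (2 fell); the label left with 1 library was assumed to vary like the other. No called member changed its direction under any of these alternatives. Ifngr1 passed with DESeq2 (adjusted p = 0.011), with the block (0.0129), without WT replicate 2 (0.0255) and without ICAM-1 KO replicate 1 (0.0233). Parp9 passed with DESeq2 (0.0359) and without ICAM-1 KO replicate 1 (0.0488), and Samhd1 with DESeq2 (0.0447).

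With the replicate block 6 members rose and 4 fell, and the block changed no other call. The replicate numbers are no evidence of a pairing, since deviations of libraries with the same number correlated at -0.0582 over 11711 genes. Members under 31 normalized counts had standard errors up to 0.534 on the log2 scale, which limits what could be called.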
